A study of Homo sapiens with 9 samples.

Results

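The solute carriers (SLC genes) described here are the genes of the table with a symbol of the SLC pattern and a mean FPKM of at least 2 over the 3 DMSO libraries. SLC7A5 and SLC7A11 were set aside by the rule. This gave 180 genes of 332 with an SLC symbol and of 16772 genes in all. The members were thus chosen by their measured level in DMSO. FPKM, the unit of all levels below, divides the fragments of a gene by its transcript length and by the size of the library. The cells were DU145, an established human prostate carcinoma line labelled as wild type, kept for 6 days with the medium changed daily. All 3 groups received the solvent: DMSO alone, H93 at 20 µM dissolved in DMSO, or SAHA at 500 nM dissolved in DMSO, with 3 libraries each. Per the series title H93 targets UHRF1, which guides maintenance DNA methylation after replication, and SAHA (vorinostat) inhibits histone deacetylases. Dose units in the labels (μm, nm) were taken as micromolar and nanomolar, so the compounds were not given at a matched dose. The labels do not say that libraries came from separate cultures, so the p-values cover library-to-library spread only, and that spread may be technical.

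Solute carriers are membrane proteins that move nutrients, ions, vitamins, metals and metabolites across the plasma membrane and the membranes of organelles. Most work by facilitated diffusion or by coupling transport to a sodium, proton or counter-substrate gradient, in contrast to pumps that use ATP directly. Most SLC25 members are carriers of the inner mitochondrial membrane, and several SLC35 members bring nucleotide sugars into the Golgi and endoplasmic reticulum. SLC30 and SLC39 move zinc out of and into the cytosol. Cancer cells in culture draw glucose, amino acids and folate from the medium through such carriers. Some members need a partner: the monocarboxylate carriers SLC16A1 and SLC16A3 reach the cell surface with basigin (BSG), and several light chains of the SLC7 family are held by the heavy chain SLC3A2. Among the 180 genes, 175 encode transporters by family, and 5 carry an SLC symbol but are not transporters. The classes below follow the family number, so a class name need not hold for each member.

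The FPKM summed to between 348656 and 355741 per library, 14910 to 15295 genes were above 0, and the absolute read depth was unknown, with relative depths between 0.877 and 1.0. The 180 solute carriers held 0.918% to 0.968% of the summed FPKM of a library. The epithelial markers KRT8, KRT18, KRT19, EPCAM and CDH1 were all present. The summed epithelial markers ran from 1583 to 1623 FPKM in DMSO, 1827 to 1864 in H93 and 1751 to 1827 in SAHA. Within that list the levels went different ways: KRT19 was 169 ± 1.59 in DMSO, 420.4 ± 2.95 in H93 and 326 ± 10.8 in SAHA (mean ± SD, n = 3), KRT8 was 676 ± 11.1, 730.4 ± 7.83 and 714 ± 16.7, and KRT18 was 682 ± 10.5, 663 ± 9.02 and 694 ± 17.3. EPCAM was 67.1 ± 0.918 in DMSO, 30.4 ± 1.08 in H93 and 37.8 ± 1.86 in SAHA, and CDH1 was 13.3 ± 0.043, 4.34 ± 0.334 and 5.09 ± 0.199. The summed leukocyte markers (2 of 4 analysed) ran from 0.567 to 0.578 in DMSO, 0.836 to 1.09 in H93 and 0.541 to 1.13 in SAHA, and PTPRC was at most 0.018. The summed fibroblast markers ran from 2.28 to 3.15, 3.59 to 4.33 and 3.45 to 6.17, and the endothelial ones stayed between 0.112 and 0.302. The part of these marker levels in the results was not tested, and in bulk RNA a change in the mix of cells and a change of RNA per cell cannot be told apart.

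Levels in DMSO spanned from a mean FPKM of 2.03 to 216, with a median of 8.75, against 12.2 for all genes at the same minimum level. The 10 highest members held 35.2% of the members' summed FPKM, 16 members were at 50 or above, and 47 were under 5. The highest was SLC25A5, the adenine nucleotide translocase that exchanges mitochondrial ATP for ADP, with FPKM of 215, 213 and 221. It was followed by SLC38A2, a sodium-coupled neutral amino acid transporter, with 133, 132 and 132. SLC39A1, a zinc importer, had 134, 131 and 129, and SLC16A3, the lactate exporter MCT4, had 119.9, 120.5 and 121. The DMSO means of SLC38A2 (132 ± 0.698) and SLC39A1 (131 ± 2.51) did not differ beyond their spread. SLC39A7, which releases zinc from the endoplasmic reticulum, had 123, 117 and 119, its mean of 119.7 ± 3.08 next to that of SLC16A3 (120.4 ± 0.557). The median coefficient of variation of a member among the DMSO libraries was 3.44%. Just inside the minimum level were SLC25A42 (2.03), SLC9B2 (2.04) and SLC4A4 (2.07), and just outside it were SLC25A16 (1.94), SLC18A2 (1.81) and SLC16A9 (1.78).

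**Figure D1:**
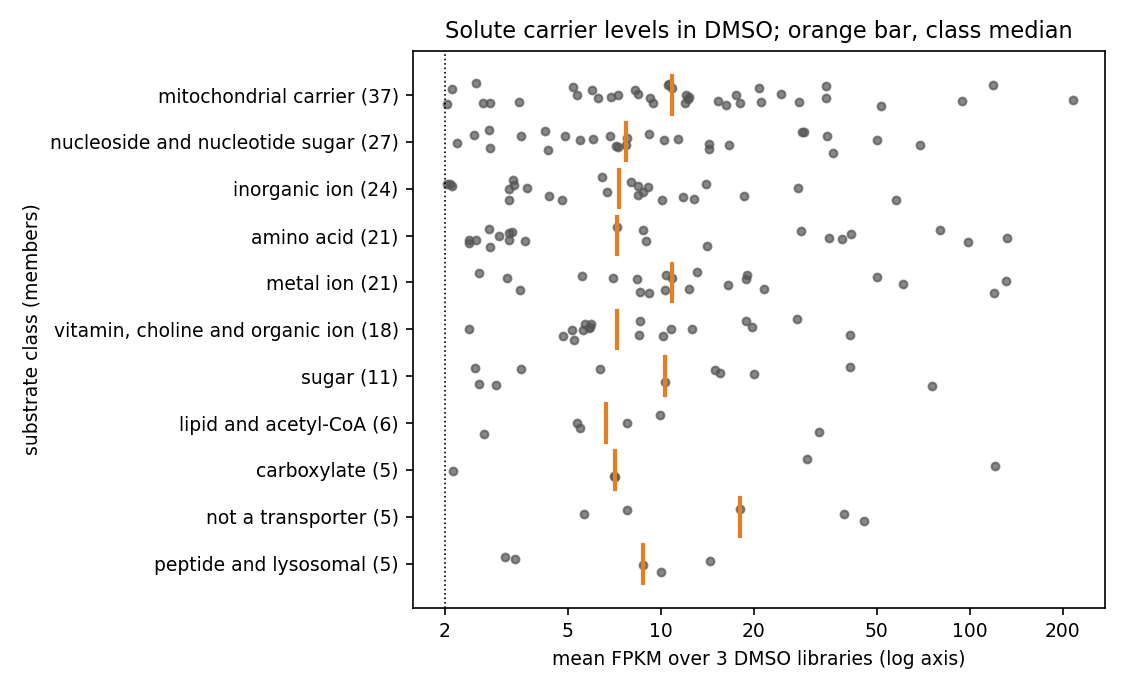
Mean FPKM over the 3 DMSO libraries (log axis) of each of the 180 solute carriers, by substrate class, with the class median as an orange bar and the minimum of 2 as a dotted line. Mitochondrial carriers include the highest member at 216, and the amino acid, metal ion and carboxylate classes each hold members above 100.

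Differences are given as log2(FPKM + 1), on which changes at low FPKM appear smaller than they are. Tests ran over the 11525 genes that reached an FPKM of 1 in 3 or more libraries, and a gene is said to rise or fall at a limma adjusted p under 0.05. A 1.5-fold call also needed a difference of at least 0.585 on the log2 scale, and a 2-fold call at least 1. All 180 members were among the 11525 genes, which their level in DMSO alone ensured. Since that level chose the members and is also one arm of each comparison with DMSO, a gene that is low in DMSO and rises cannot be a member, and the counts against DMSO are a description. The comparisons of H93 and of SAHA with DMSO use the same 3 DMSO libraries. Values with ± are the mean and SD of the FPKM of 3 libraries, in the order DMSO, H93 and SAHA where no group is named, and a log2 difference is given with the SE of the fit.

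With H93, 70 of the 180 solute carriers rose and 70 fell (38.9% in each direction). Over all 11525 genes 34.9% rose and 35.0% fell, and over the 10190 genes with a DMSO mean of at least 2 the shares were 33.9% and 37.5%. Most differences were small, with a median absolute log2 difference of 0.22 for the members and 0.20 for the 10190 genes, and a range from -1.14 to 0.78 for the members. At 1.5-fold, 6 members rose (3.33%, against 4.51% of the 10190 genes) and 20 fell (11.1%, against 5.15%). At 2-fold, 0 members rose and 2 fell, SLC25A10 and SLC12A7, where 0.903% of the 10190 genes fell. The DMSO and H93 libraries did not overlap in 143 members (79.4%, against 74.6%). The 1.5-fold count of rises was 11 with a pseudocount of 0.1 and 0 with a pseudocount of 5, and that of falls was 7 with a pseudocount of 5. By mean FPKM without a pseudocount, SLC1A3 and SLC43A2 also fell by more than 2-fold with H93, 2.11- and 2.15-fold.

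With SAHA, 48 members rose (26.7%) and 65 fell (36.1%). The shares over all 11525 genes were 27.4% and 31.4%, and over the 10190 genes 26.4% and 33.8%. At 1.5-fold, 0 members rose, where 2.04% of the 10190 genes did, and 8 fell (4.44%, against 2.38%). Both 2-fold falls were again SLC25A10 and SLC12A7, where 0.412% of the 10190 genes fell, and both lay close to the limit: the count was 0 without DMSO replicate 3 or without SAHA replicate 2. These fold calls depend on the pseudocount of 1. By mean FPKM without it, SLC9A7 and SLC49A4 rose by more than 1.5-fold with SAHA. In the same way SLC1A3, SLC22A31 and SLC27A3 fell 2.14-, 2.25- and 2.06-fold. SLC6A9, whose means are given below, also fell by more than 2-fold. The libraries of DMSO and SAHA did not overlap in 126 members (70.0%, against 64.9%). The median absolute log2 difference was 0.16 for the members and 0.14 for the 10190 genes. By group means, 69 members were in the order DMSO, SAHA, H93 from low to high, and 43 in the reverse order.

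**Figure D2:**
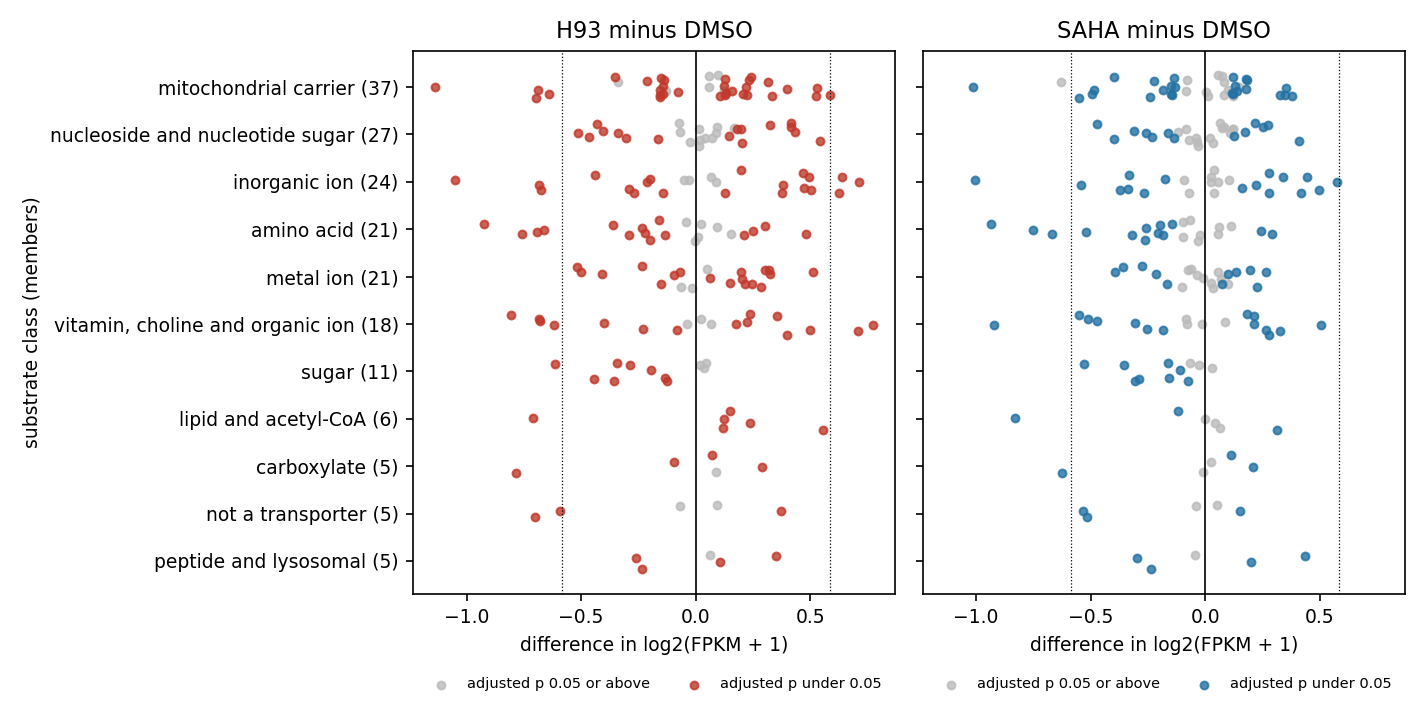
Difference in log2(FPKM + 1) from DMSO for each of the 180 solute carriers by substrate class, with H93 on the left and SAHA on the right. Coloured points passed the adjusted p of 0.05, and dotted lines mark 1.5-fold. In the H93 panel 20 coloured points lie beyond the left line and 6 beyond the right one, and no sugar transporter that passed lies right of 0 in either panel.

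Promoter windows of 250 bases before the RefSeq start (GRCh38.p14) were matched for 151 of the 180 members. Members had GGGCGG (the GC box) on either strand in 75.5% of windows, against 42.3% of all 27305 RefSeq promoters and 70.8% of the 8355 promoters of genes at the same minimum level. The share was 71.2% of 59 members that rose with H93 and 79.3% of 58 that fell. CACGTG (the E-box) stood in 9.27% of member windows, against 6.49% of all promoters and 9.14% of those of genes at that level, with 8.47% of the members that rose and 10.3% of those that fell. TGACNNNGC (antioxidant response) stood in 14.6% of member windows, against 11.0% and 12.4%, with 11.9% and 20.7% for the members that rose and fell. TGCNCNC (metal response) stood in 55.6%, against 48.4% and 57.3%, with 50.8% and 62.1%. TGATGNAA (amino acid response) stood in 1.32%, against 3.19% and 1.21%, with 0 of the 59 members that rose and 3.45% of those that fell. A match is only a stretch of letters, and the shares are descriptions without a test.

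Windows are printed for 3 transporters among the 10 largest changes in each direction: SLC12A7, which fell, and SLC46A3 and SLC25A42, which rose. They were taken because their RefSeq start lies at the GENCODE gene start or a little upstream of it. Each window is written 5′ to 3′ on the strand of the gene, with GGGCGG and CACGTG of either strand in capitals.
SLC12A7 (chr5:1112064-1112313, minus strand): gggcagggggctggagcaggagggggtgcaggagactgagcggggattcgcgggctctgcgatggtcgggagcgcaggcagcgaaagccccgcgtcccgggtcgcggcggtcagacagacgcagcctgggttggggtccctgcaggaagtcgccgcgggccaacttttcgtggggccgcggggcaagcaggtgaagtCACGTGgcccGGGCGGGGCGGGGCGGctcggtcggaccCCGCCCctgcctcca
SLC46A3 (chr13:28718971-28719220, minus strand): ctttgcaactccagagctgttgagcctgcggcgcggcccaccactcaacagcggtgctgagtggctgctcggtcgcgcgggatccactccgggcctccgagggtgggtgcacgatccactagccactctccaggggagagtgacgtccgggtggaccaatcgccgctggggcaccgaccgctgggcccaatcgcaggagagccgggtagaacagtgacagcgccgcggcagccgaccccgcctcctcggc
SLC25A42 (chr19:19063744-19063993, plus strand): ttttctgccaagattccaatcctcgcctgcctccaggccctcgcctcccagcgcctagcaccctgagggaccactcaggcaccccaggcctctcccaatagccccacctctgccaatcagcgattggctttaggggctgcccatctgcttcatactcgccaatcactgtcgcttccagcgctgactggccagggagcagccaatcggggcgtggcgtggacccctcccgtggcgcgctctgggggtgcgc
The SLC12A7 window held 4 matches of GGGCGG, overlapping runs and the reverse complement included, and 1 of CACGTG, with a GC content of 74.4%. The windows of SLC46A3 and SLC25A42 held neither, with a GC content of 69.6% and 65.2%. These windows do not stand for their direction: GGGCGG was in 71.2% of the members that rose with H93 and 79.3% of those that fell.

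Each class count against DMSO below is to be read beside the shares of the 10190 genes with a DMSO mean of at least 2. Of those genes 33.9% rose and 37.5% fell with H93, and 26.4% and 33.8% with SAHA. No class was tested. Of the 21 amino acid transporters, 11 fell and 4 rose with H93, and 11 fell and 2 rose with SAHA. Their summed FPKM was 523 ± 1.68 in DMSO, 491 ± 4.24 in H93 and 482 ± 1.08 in SAHA (mean ± SD, n = 3). The largest fall was that of SLC1A3, the glutamate and aspartate transporter EAAT1 (chr5:36606355-36688334, plus strand), with FPKM of 8.52, 8.64 and 9.12 in DMSO, 4.18, 4.32 and 3.95 in H93 and 3.97, 4.13 and 4.21 in SAHA. Each treated library was under every DMSO library, and the H93 and SAHA libraries overlapped. The difference was -0.92 ± 0.045 (SE, limma adjusted p = 3.3e-09) for H93 and -0.94 ± 0.045 (SE, limma adjusted p = 6.48e-09) for SAHA. SLC6A6, the taurine transporter, was among the better expressed members, with FPKM of 35.7, 35.3 and 34.3 in DMSO, 21.3, 20.8 and 21.9 in H93 and 24.3, 24.5 and 23.7 in SAHA. Here the 3 groups were apart, with DMSO highest and H93 lowest, and H93 differed from DMSO by -0.69 ± 0.03 (SE, limma adjusted p = 1.11e-09). SLC43A2, the branched-chain amino acid transporter LAT4, had FPKM of 3.14, 3.24 and 3.33 in DMSO, 1.61, 1.38 and 1.53 in H93 and 1.86, 1.60 and 1.55 in SAHA, a difference of -0.76 for H93 and -0.67 for SAHA. SLC6A9, the glycine transporter GlyT1, stood at 2.99 ± 0.236 in DMSO, 1.53 ± 0.198 in H93 and 1.37 ± 0.104 in SAHA and fell with both (adjusted p = 3.02e-06 and 1.76e-06). SLC38A2 went the other way.

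SLC38A2 had FPKM of 133, 132 and 132 in DMSO, 159, 157 and 157 in H93 and 158, 161 and 151 in SAHA. Every treated library was above every DMSO library, and the difference was 0.25 ± 0.024 (SE, limma adjusted p = 1.55e-06) for H93 and 0.24 ± 0.024 (SE, limma adjusted p = 3.56e-06) for SAHA. SLC3A2, the shared heavy chain of the heteromeric amino acid transporters, was 98.5 ± 0.742 in DMSO, 80.4 ± 0.699 in H93 and 78.8 ± 2.37 in SAHA and fell with H93 by 0.29 on the log2 scale (limma adjusted p = 4.77e-07). Its light chain SLC7A5, the large neutral amino acid transporter LAT1 and no member by the rule, had FPKM of 105, 106 and 105 in DMSO, 62.6, 63.5 and 66.0 in H93 and 70.4, 64.7 and 69.2 in SAHA and fell with both compounds, by 0.71 and 0.62. SLC7A11, the cystine and glutamate exchanger that the rule also set aside, was 12.9 ± 0.27, 12.6 ± 0.261 and 10.3 ± 0.295. It fell with SAHA (limma adjusted p = 1.7e-05), did not pass with H93 (adjusted p = 0.578), and was higher in H93 than in SAHA by 0.27 ± 0.035 (SE, limma adjusted p = 0.000238). SLC1A5, the glutamine transporter ASCT2, likewise fell with SAHA and did not pass with H93, with 80.3 ± 1.82, 81.7 ± 0.836 and 72.6 ± 2.70, adjusted p of 0.469 for H93 and 0.00106 for SAHA.

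The 11 sugar transporters gave 0 rises and 8 falls with each compound, and their summed FPKM was 196 ± 4.85 in DMSO, 169.9 ± 0.652 in H93 and 178 ± 4.16 in SAHA. With SAHA the number of falls was 5 without SAHA replicate 2, and with genes limited to a mean FPKM of at least 5 it was 5 for either compound. All 5 members of the SLC2 family of facilitative glucose and fructose transporters fell with both compounds. SLC2A1, the main glucose importer GLUT1, was the highest of them, with FPKM of 74.2, 76.1 and 76.9 in DMSO, 68.2, 68.7 and 71.0 in H93 and 73.2, 69.4 and 73.2 in SAHA. Its fall was small, at -0.13 ± 0.028 (SE, limma adjusted p = 0.00144) for H93 and -0.07 ± 0.028 (SE, limma adjusted p = 0.0379) for SAHA. SLC2A10 had FPKM of 2.55, 2.53 and 2.68 in DMSO, 1.57, 1.5 and 1.86 in H93 and 1.96, 1.97 and 1.89 in SAHA, and SLC2A11 stood at 2.92 ± 0.217, 2.06 ± 0.06 and 2.17 ± 0.225. For both genes each treated library lay under every DMSO library, with H93 differences of -0.44 and -0.36. The fall of SLC2A8 was near the threshold with H93 (limma adjusted p = 0.0481), and its SAHA libraries overlapped those of DMSO. Under the minimum level, where genes are no members, SLC2A13 and SLC2A3 rose with both compounds. SLC2A13 was 1.27 ± 0.0704, 2.05 ± 0.0576 and 1.61 ± 0.0685, and SLC2A3 was 0.814 ± 0.055, 1.39 ± 0.153 and 1.56 ± 0.129. SLC2A4, also under that level, passed with neither. SLC2A3 was under an FPKM of 1 in each DMSO library. It thus passed the filter on low values only through the treated libraries, and its rise is a description. The largest fall of the class was that of SLC5A3, which imports myo-inositol, with FPKM of 5.90, 6.64 and 6.59 in DMSO, 3.91, 3.86 and 3.67 in H93 and 4.10, 4.28 and 3.97 in SAHA and an H93 difference of -0.61 ± 0.051 (SE, limma adjusted p = 3.69e-07). SLC5A3 shares exon sequence with MRPS6 on the same strand, so its reads may be split between them. SLC50A1, a sugar transporter of the SWEET type, was 41.1 ± 1.56, 32.2 ± 1.61 and 36.6 ± 1.65 and fell with both (adjusted p = 1.39e-05 and 0.0057).

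The carboxylate transporters included SLC16A3 (MCT4), SLC16A1 (MCT1) and SLC16A5 (MCT6). SLC16A5 had FPKM of 7.03, 6.92 and 7.42 in DMSO, 3.35, 4.03 and 3.77 in H93 and 4.44, 3.83 and 4.54 in SAHA, which put it among the 10 largest falls with both compounds, at -0.79 ± 0.065 (SE, limma adjusted p = 3.42e-07) and -0.63 ± 0.065 (SE, limma adjusted p = 4.8e-06). SLC16A3 had FPKM of 119.9, 120.5 and 121 in DMSO, 114, 111 and 114 in H93 and 123, 122 and 123 in SAHA and differed from DMSO by -0.10 ± 0.02 (SE, limma adjusted p = 0.00115) in H93, while SAHA did not pass (adjusted p = 0.312). The direct difference of H93 and SAHA was -0.12 ± 0.02 (SE, limma adjusted p = 0.00121). SLC16A1 moved little, with means of 29.7, 31.3 and 32.2 and adjusted p of 0.0343 and 0.00352. SLC16A13 did not pass in any comparison, with 7.06 ± 0.397, 7.59 ± 0.668 and 6.99 ± 0.328.

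Mitochondrial carriers were the largest class, and of 37 members 17 rose and 14 fell with H93, and 12 rose and 13 fell with SAHA. The largest fall of all members was that of SLC25A10, the dicarboxylate carrier that exchanges malate or succinate for phosphate (chr17:81712236-81721016, plus strand). It had FPKM of 17.0, 17.5 and 18.2 in DMSO, 7.5, 6.62 and 8.28 in H93 and 8.41, 8.0 and 8.16 in SAHA. No treated library reached a DMSO library, a difference of -1.14 ± 0.06 (SE, limma adjusted p = 5.53e-09) for H93 and -1.01 ± 0.06 (SE, limma adjusted p = 3.4e-08) for SAHA. SLC25A1, which exports citrate to the cytosol, had FPKM of 53.3, 50.9 and 50.5 in DMSO, 31.5, 32.6 and 30.2 in H93 and 35.8, 33.4 and 35.5 in SAHA. The 3 groups did not overlap, and the differences were -0.70 for H93 and -0.55 for SAHA. SLC25A15, the ornithine carrier of the urea cycle, was 12.3 ± 0.613, 7.28 ± 0.275 and 8.50 ± 0.0743, and SLC25A13, the aspartate and glutamate carrier citrin, was 15.3 ± 0.36, 9.46 ± 0.219 and 10.6 ± 0.548. Both fell, by 0.69 and 0.64 with H93 and by 0.49 and 0.49 with SAHA. The abundant SLC25A5 had FPKM of 215, 213 and 221 in DMSO, 207, 206 and 202 in H93 and 208, 220.0 and 222 in SAHA, and its H93 difference of -0.08 (limma adjusted p = 0.0179) was lost without DMSO replicate 3 (0.0814) or H93 replicate 3 (0.065).

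Among mitochondrial carriers that rose, SLC25A20, which carries acylcarnitines for fatty acid oxidation, had FPKM of 12.5, 12.1 and 11.8 in DMSO, 18.4, 18.4 and 17.0 in H93 and 15.4, 15.7 and 16.1 in SAHA. The groups were apart, and the difference was 0.53 ± 0.039 (SE, limma adjusted p = 1.07e-07) for H93 and 0.35 ± 0.039 (SE, limma adjusted p = 7.54e-06) for SAHA. SLC25A27, the uncoupling protein UCP4, was 2.80 ± 0.29, 4.70 ± 0.266 and 3.78 ± 0.421 and rose by 0.59 and 0.33. SLC25A42, a coenzyme A carrier and the member nearest the minimum level, had FPKM of 2.08, 2.06 and 1.96 in DMSO, 3.09, 3.85 and 3.19 in H93 and 2.17, 2.05 and 2.71 in SAHA. It rose with H93, at 0.53 ± 0.081 (SE, limma adjusted p = 8.27e-05), and did not pass with SAHA (adjusted p = 0.211). SLC25A4, the muscle form of the adenine nucleotide translocase, was 2.66 ± 0.217, 3.61 ± 0.323 and 3.75 ± 0.128. SLC25A51, which brings NAD into mitochondria, was 12.0 ± 0.831, 14.2 ± 0.459 and 15.5 ± 0.859. Both rose with both compounds, by 0.33 and 0.23 with H93 and by 0.38 and 0.35 with SAHA. A second table entry of SLC25A6 gave FPKM of 3.22, 3.86 and 11.0 in DMSO, 2.49, 1.80 and 11.5 in H93 and 5.15, 2.00 and 2.58 in SAHA. These libraries spread widely within groups, the entry passed in no comparison, and SLC25A6 has 2 entries between which reads cannot be placed with certainty.

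Of the 24 inorganic ion, bicarbonate and proton carriers, 11 rose and 9 fell with H93, and 9 rose and 7 fell with SAHA. SLC12A7, the potassium-chloride cotransporter KCC4, moves chloride out of the cell. The gene lies at chr5:1050376-1112035, minus strand, and had FPKM of 8.94, 8.92 and 9.34 in DMSO, 3.82, 3.79 and 3.98 in H93 and 4.06, 3.77 and 4.22 in SAHA. Its treated libraries were all under its DMSO libraries, at -1.05 ± 0.046 (SE, limma adjusted p = 1.25e-09) for H93 and -1.01 ± 0.046 (SE, limma adjusted p = 3.88e-09) for SAHA. SLC12A2, the sodium-coupled importer NKCC1, was 3.34 ± 0.19, 5.00 ± 0.149 and 4.25 ± 0.125 and rose with both (adjusted p = 2.41e-06 and 0.000329). SLC12A8 had FPKM of 4.25, 4.38 and 4.39 in DMSO, 2.39, 2.23 and 2.43 in H93 and 3.29, 3.11 and 2.98 in SAHA, a fall of 0.67 with H93 and 0.37 with SAHA.

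The sodium-proton exchangers were likewise mixed. SLC9A7 (NHE7 of the trans-Golgi network) had FPKM of 3.63, 3.61 and 3.79 in DMSO, 6.65, 6.45 and 6.93 in H93 and 5.91, 5.88 and 6.11 in SAHA and rose by 0.71 ± 0.042 (SE, limma adjusted p = 1.66e-08) with H93 and 0.57 ± 0.042 (SE, limma adjusted p = 2.38e-07) with SAHA, the largest rise of a member with SAHA. SLC9A3 (NHE3, the epithelial exchanger) fell, with 6.68 ± 0.0854, 3.79 ± 0.226 and 4.28 ± 0.117 and a difference of -0.68 for H93, and its exons overlap genes on both strands. SLC8B1, the mitochondrial sodium-calcium exchanger, had FPKM of 10.3, 9.97 and 9.95 in DMSO, 15.6, 16.1 and 16.7 in H93 and 13.6, 12.9 and 14.9 in SAHA and rose by 0.63 and 0.42. SLC4A7, a sodium-bicarbonate cotransporter, was 11.8 ± 0.514, 17.1 ± 0.121 and 17.0 ± 0.489, with differences of 0.50 and 0.50. SLC4A4, another bicarbonate carrier, rose from 2.07 ± 0.0473 to 3.33 ± 0.106 with H93 and 2.89 ± 0.0429 with SAHA. SLC20A1, a sodium-phosphate cotransporter, was 27.8 ± 0.887, 23.9 ± 0.588 and 28.3 ± 0.637 and fell with H93 (limma adjusted p = 7.58e-05) but did not pass with SAHA (adjusted p = 0.547). SLC9B2 did not pass in any comparison.

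Among 18 vitamin, choline, heme and organic ion carriers, 8 rose and 7 fell with H93, and 7 rose and 7 fell with SAHA. SLC19A1, the reduced folate carrier and the route of methotrexate into cells (chr21:45493572-45544411, minus strand), had FPKM of 19.0, 18.8 and 18.7 in DMSO, 10.2, 10.7 and 10.1 in H93 and 13, 12.4 and 12.2 in SAHA. DMSO was highest and H93 lowest with no overlap, at -0.80 ± 0.035 (SE, limma adjusted p = 1.25e-09) for H93 and -0.55 ± 0.035 (SE, limma adjusted p = 7e-08) for SAHA. SLC46A1, the proton-coupled folate transporter, did not pass for either compound, at 10.8 ± 0.379, 10.5 ± 0.122 and 10.2 ± 0.065. SLC5A6, the sodium-dependent carrier of biotin and pantothenate, had FPKM of 19.4, 20.4 and 19.5 in DMSO, 11.8, 11.6 and 12.4 in H93 and 13.8, 14.4 and 13.6 in SAHA and fell by 0.68 with H93 and 0.47 with SAHA. SLC19A1 overlaps exons of COL18A1 and SLC5A6 those of ATRAID, in both cases on the opposite strand. SLC47A1, the drug and organic cation exporter MATE1, was 5.93 ± 0.552, 3.31 ± 0.233 and 3.85 ± 0.182 and fell with both (adjusted p = 1.1e-06 and 2.32e-05). SLC22A31, of the organic ion family, had FPKM of 5.27, 5.69 and 5.83 in DMSO, 2.80, 3.92 and 3.26 in H93 and 2.36, 2.49 and 2.61 in SAHA and fell by 0.62 with H93 and 0.92 with SAHA.

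The largest rise with H93 among the members was in the same class. SLC49A4, a lysosomal membrane carrier (chr3:122794795-122881139, plus strand), had FPKM of 5.04, 5.47 and 4.97 in DMSO, 10.2, 9.42 and 9.04 in H93 and 7.71, 7.63 and 7.94 in SAHA. The 3 groups did not overlap, and the difference was 0.78 ± 0.049 (SE, limma adjusted p = 3.09e-08) for H93 and 0.51 ± 0.049 (SE, limma adjusted p = 2.65e-06) for SAHA. SLC46A3, which sits in the lysosomal membrane, had FPKM of 4.79, 4.63 and 5.03 in DMSO, 9.0, 8.19 and 8.34 in H93 and 6.89, 5.99 and 6.02 in SAHA. It rose by 0.71 ± 0.056 (SE, limma adjusted p = 2.12e-07) with H93 and by 0.33 ± 0.056 (SE, limma adjusted p = 0.000292) with SAHA. By the deposited annotation 18 members belong to the lysosomal membrane, a set that does not hold SLC46A3. Of these 18, 9 rose and 6 fell with H93, and 6 rose and 5 fell with SAHA. Among all genes of the same minimum level 33.9% and 37.5% rose and fell with H93, and 26.4% and 33.8% with SAHA. The summed FPKM of the 18 members was 313 ± 2.71 in DMSO, 299 ± 4.32 in H93 and 293 ± 4.31 in SAHA.

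**Figure D3:**
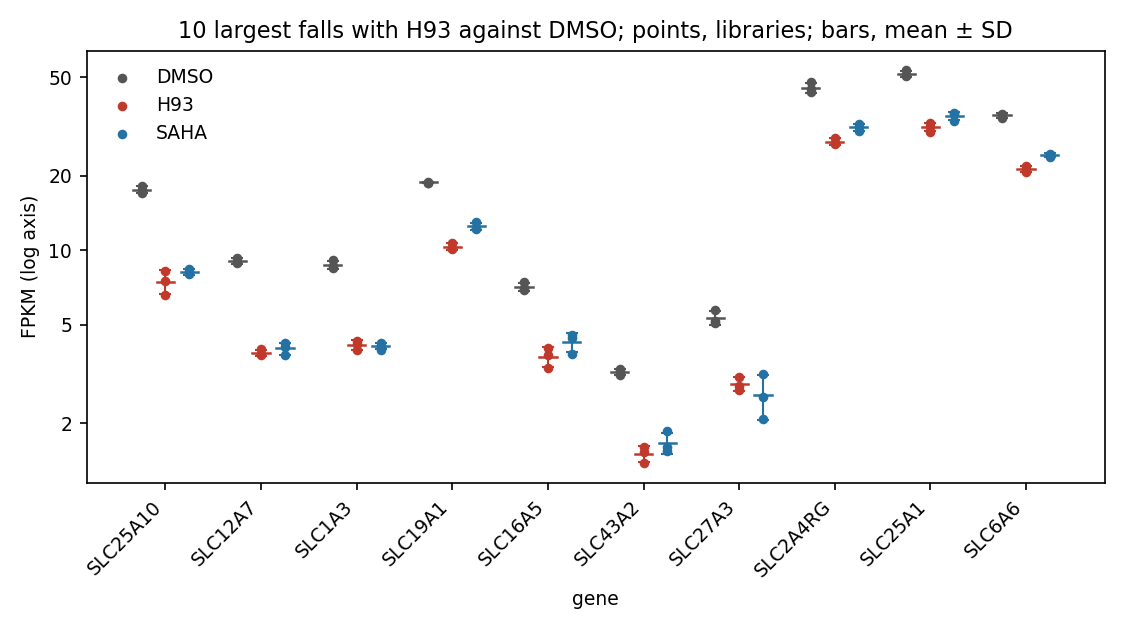
FPKM (log axis) of the 10 members with the largest falls with H93, a point for each library and a bar with the mean ± SD of 3 libraries. For each gene the 3 DMSO libraries lie above all H93 and SAHA libraries, and the SAHA libraries overlap those of H93 for SLC25A10, SLC12A7, SLC1A3, SLC16A5, SLC43A2 and SLC27A3.

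**Figure D4:**
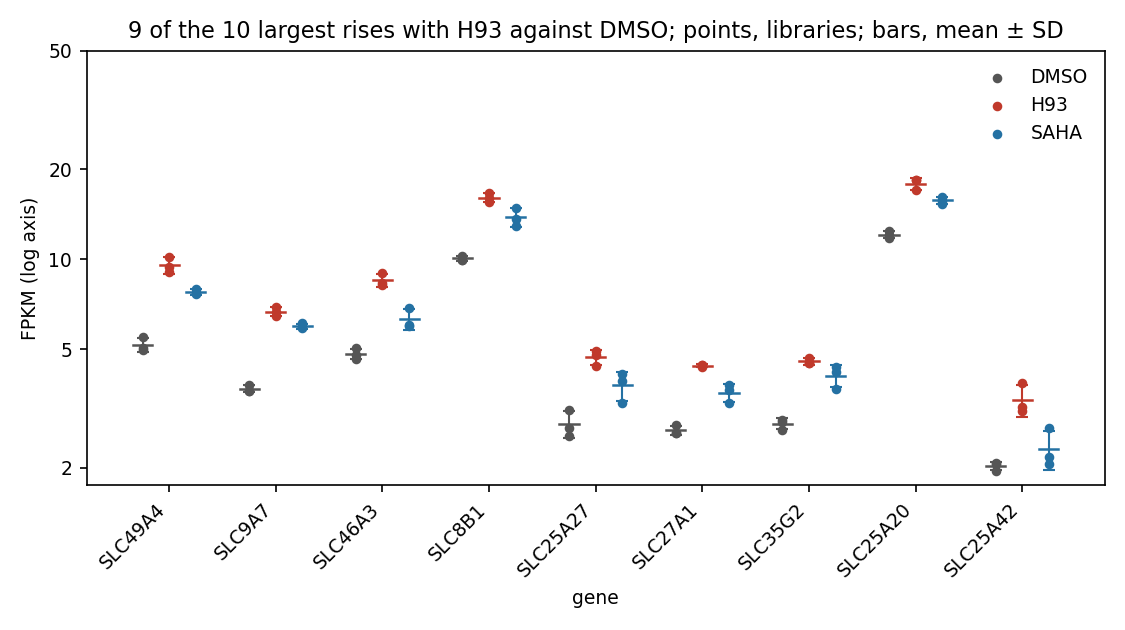
FPKM (log axis) of 9 of the 10 members with the largest rises with H93, a point for each library and a bar with the mean ± SD of 3 libraries. The H93 libraries lie above all DMSO libraries for each gene, and SLC25A42 is the gene whose SAHA mean (2.31) is nearest its DMSO mean (2.03).

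Of the 21 metal ion carriers, 11 rose and 7 fell with H93, and 6 rose and 5 fell with SAHA. SLC30A1, which exports zinc from the cytosol and is a textbook target of the metal-responsive factor MTF1, had FPKM of 5.71, 5.80 and 5.22 in DMSO, 7.75, 6.62 and 7.0 in H93 and 5.69, 4.87 and 5.19 in SAHA. H93 lay above the other groups, at 0.30 ± 0.063 (SE, limma adjusted p = 0.000903) against DMSO, and SAHA did not pass (adjusted p = 0.326). Of the 5 members of its family, the SLC30 zinc exporters, 2 rose and 2 fell with H93: SLC30A7 differed by 0.25, SLC30A5 by -0.15 and SLC30A6 by -0.24. The 11 members of the SLC39 family, most of them zinc importers, were likewise divided, with 5 that rose and 5 that fell. The rises were in SLC39A13 (0.32), SLC39A9 (0.21), SLC39A3 (0.20), SLC39A8 (0.15) and SLC39A6 (0.06). The zinc importers SLC39A10, SLC39A4 and SLC39A11 fell with H93, by 0.41, 0.50 and 0.52. SLC39A10 had FPKM of 8.52, 8.25 and 8.42 in DMSO, 6.14, 6.19 and 5.93 in H93 and 7.41, 7.26 and 6.63 in SAHA, and the levels of SLC39A4 and SLC39A11 were lower, with DMSO means of 3.19 and 2.58. SLC39A1, the highest importer, had 131 ± 2.51, 123 ± 0.654 and 128 ± 2.68 and fell with H93 by 0.10 (limma adjusted p = 0.0026), SLC39A14 differed by -0.07 (limma adjusted p = 0.0332), and SLC39A7 did not pass with either compound (0.628 and 0.276). The copper carriers rose with both compounds: SLC31A1, the importer CTR1, was 18.8 ± 0.513, 23.8 ± 0.431 and 20.3 ± 0.507, and SLC31A2 had FPKM of 7.0, 6.84 and 7.27 in DMSO, 10.6, 10.2 and 10.6 in H93 and 8.30, 8.21 and 9.48 in SAHA. Their H93 differences were 0.32 ± 0.032 (SE, limma adjusted p = 1.68e-06) and 0.51 ± 0.051 (SE, limma adjusted p = 1.73e-06).

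The 27 nucleoside and nucleotide sugar carriers gave 9 rises and 7 falls with H93, and 6 rises and 7 falls with SAHA. SLC35A2, which brings UDP-galactose into the Golgi, had FPKM of 11.4, 11.3 and 11.5 in DMSO, 15.7, 15.4 and 16.2 in H93 and 12.5, 13.3 and 13.2 in SAHA and rose by 0.43 ± 0.035 (SE, limma adjusted p = 2.91e-07) with H93 and 0.17 ± 0.035 (SE, limma adjusted p = 0.00106) with SAHA. SLC35C2, a Golgi member of the family, had FPKM of 9.94, 10.2 and 10.5 in DMSO, 6.70, 6.79 and 7.08 in H93 and 8.42, 8.08 and 8.70 in SAHA and fell, by 0.51 and 0.26. SLC35G2 was 2.81 ± 0.119, 4.55 ± 0.113 and 4.08 ± 0.357, a rise of 0.54 and 0.41. SLC29A2, the equilibrative nucleoside transporter ENT2, had FPKM of 13.8, 14.6 and 14.5 in DMSO, 9.98, 10.2 and 10.1 in H93 and 12.7, 11.5 and 12.0 in SAHA. Its groups were in the order H93, SAHA, DMSO from low to high with no overlap, and the H93 difference was -0.47 ± 0.04 (SE, limma adjusted p = 4.55e-07).

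Of the 6 lipid and acetyl-CoA carriers, 5 rose and 1 fell with H93, and 1 rose and 2 fell with SAHA, where leaving out single libraries gave 1 to 2 in each direction. SLC27A1, a fatty acid transport protein with acyl-CoA synthetase activity, had FPKM of 2.61, 2.62 and 2.77 in DMSO, 4.43, 4.34 and 4.42 in H93 and 3.78, 3.63 and 3.30 in SAHA and rose by 0.56 ± 0.051 (SE, limma adjusted p = 7.99e-07) with H93. SLC27A3, of the same family, had FPKM of 5.75, 5.20 and 5.09 in DMSO, 2.83, 3.09 and 2.72 in H93 and 2.08, 2.55 and 3.16 in SAHA and fell by 0.71 ± 0.091 (SE, limma adjusted p = 1.72e-05) with H93 and 0.83 ± 0.091 (SE, limma adjusted p = 7.58e-06) with SAHA. The exons of SLC27A3 overlap those of INTS3 on the same strand. SLC27A2 had FPKM of 10.0, 9.37 and 10.4 in DMSO, 11.4, 11.3 and 10.6 in H93 and 9.01, 9.04 and 9.06 in SAHA. It rose with H93 by 0.15 and fell with SAHA by 0.12, where the call (adjusted p = 0.0278) was lost without DMSO replicate 1 (0.0734), DMSO replicate 3 (0.117) or SAHA replicate 1, 2 or 3 (0.0602, 0.0565 and 0.0553). SLC33A1, which brings acetyl-CoA into the endoplasmic reticulum, was 5.46 ± 0.295, 6.61 ± 0.165 and 5.66 ± 0.157, a rise with H93 (limma adjusted p = 0.0005) and no pass with SAHA (adjusted p = 0.416). In the peptide and lysosomal class of 5, SLC17A5, the sialic acid exporter sialin, had FPKM of 3.57, 3.33 and 3.20 in DMSO, 4.56, 4.50 and 4.68 in H93 and 4.91, 4.72 and 5.10 in SAHA and rose by 0.35 and 0.44. SLC66A3 and SLC66A2 fell with both, by 0.26 and 0.24 with H93. SLC15A4, a histidine and peptide carrier of endolysosomes, rose with SAHA (adjusted p = 0.00116), and its H93 call (adjusted p = 0.0334) was lost without DMSO replicate 1 (0.11) or 3 (0.0671) and without H93 replicate 1 (0.0539) or 3 (0.108).

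Of the 5 genes with an SLC symbol that are not transporters, 1 rose and 2 fell with H93, and 1 rose and 2 fell with SAHA. SLC2A4RG, a DNA-binding regulator of the SLC2A4 gene, had FPKM of 44.7, 47.6 and 43.7 in DMSO, 27.0, 27.1 and 28.4 in H93 and 32.4, 30.2 and 31.5 in SAHA and fell by 0.70 ± 0.037 (SE, limma adjusted p = 6.45e-09) with H93, and its exons overlap another gene on the same strand. SLC9A3R1 and SLC9A3R2, scaffold proteins that bind SLC9A3, moved in opposite directions. SLC9A3R1 rose from 39.1 ± 1.01 to 50.9 ± 1.56 in H93 and 43.6 ± 2.06 in SAHA. SLC9A3R2 fell from 5.66 ± 0.364 to 3.42 ± 0.203 and 3.60 ± 0.099. SLC4A1AP did not pass, with 18.0 ± 1.22, 19.3 ± 0.792 and 18.7 ± 0.598. By family, the 175 transporters fell into 43 families, 19 of them with at least 3 members, and 13 of those 19 held both rises and falls with H93 and 11 with SAHA. Of the 26 members with a 1.5-fold call for H93, 12 share exon bases with another gene in GENCODE release 29 (GRCh38), 6 on the same strand (SLC25A10, SLC27A3, SLC2A4RG, SLC12A8, SLC5A3 and SLC9A3) and 7 on the opposite strand (among them SLC19A1, SLC47A1, SLC5A6, SLC6A6, SLC6A9 and SLC9A3), so part of their reads may belong to the other gene, and the use of strand in counting is not given in the sources used here. The share with such overlap over all members or all genes was not computed. Some members without a 1.5-fold call, such as SLC16A3 and SLC39A1, overlap other genes too. Whether overlap is more common among the called members was not tested. By the deposited annotation, 10 members sit in the membrane of the endoplasmic reticulum, of which 7 rose and 2 fell with H93 and 1 rose and 2 fell with SAHA. Over the 10190 genes of the same minimum level, 33.9% rose and 37.5% fell with H93, and 26.4% and 33.8% with SAHA. Of 90 plasma membrane members 37 rose and 37 fell with H93, and of 15 Golgi membrane members 4 and 5. Of 36 members of the mitochondrial inner membrane, 17 rose and 13 fell with H93. None of these sets was tested.

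The direct comparison of H93 with SAHA took its difference from the H93 and SAHA libraries alone, while the spread behind its SE and p was estimated over all 9 libraries, the DMSO libraries that chose the members included. H93 was higher in 44 of the 180 members (24.4%) and lower in 21 (11.7%), and with a model of only the 6 libraries compared these counts were 43 and 18. Over all 11525 genes the shares were 17.6% and 13.9%, and over the 10190 genes with the same minimum level 18.0% and 15.1%. The libraries did not overlap in 89 members (49.4%, against 45.8%). At 1.5-fold, 0 members were called, where 0.148% of all genes were, and the members ran from -0.30 to 0.40. The count of higher members was 30 to 45 with a single library left out, and that of lower members 17 to 22. Amino acid transporters were higher in 4 and lower in 2, metal ion carriers in 9 and 3, and mitochondrial carriers in 8 and 4, and no sugar transporter was higher while 1 was lower. Without H93 replicate 1 the higher counts of these first 3 classes were 2, 5 and 5. For mitochondrial carriers the higher count was also 5 without H93 replicate 2 and 4 without SAHA replicate 2, and the lower count was 2 without H93 replicate 1. The lower count of sugar transporters was 2 without H93 replicate 3 or SAHA replicate 2.

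SLC25A42 gave the largest direct difference, with each H93 library above every SAHA library, at 0.40 ± 0.081 (SE, limma adjusted p = 0.00317). SLC46A3 followed at 0.38 ± 0.056 (SE, limma adjusted p = 0.000479) and SLC30A1 at 0.38 ± 0.063 (SE, limma adjusted p = 0.00107). For these 3 genes the libraries given above show the H93 group apart from the SAHA group. SLC22A31 was higher in H93 (3.32 ± 0.562) than in SAHA (2.48 ± 0.125), although both were under DMSO, at 0.30 ± 0.079 (SE, limma adjusted p = 0.0128). SLC27A2 differed by 0.27 ± 0.042 (SE, limma adjusted p = 0.000724), with DMSO between the compounds. In the other direction SLC12A8 was lower in H93 by 0.30 ± 0.049 (SE, limma adjusted p = 0.000904), SLC35C2 by 0.26 ± 0.04 (SE, limma adjusted p = 0.000738) and SLC19A1 by 0.25 ± 0.035 (SE, limma adjusted p = 0.000389). SLC20A1, SLC29A2 and SLC5A6 were lower by 0.24, 0.24 and 0.21. The 3 largest falls against DMSO gave direct differences that did not pass the test: the direct difference was 0.01 ± 0.045 (SE, limma adjusted p = 0.85) for SLC1A3, -0.04 ± 0.046 (SE, limma adjusted p = 0.501) for SLC12A7 and -0.12 ± 0.06 (SE, limma adjusted p = 0.137) for SLC25A10. Others of the 10 largest falls with H93 did pass as lower in H93, among them SLC19A1, SLC2A4RG and SLC25A1 (limma adjusted p = 0.000389, 0.0035 and 0.0095).

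**Figure D5:**
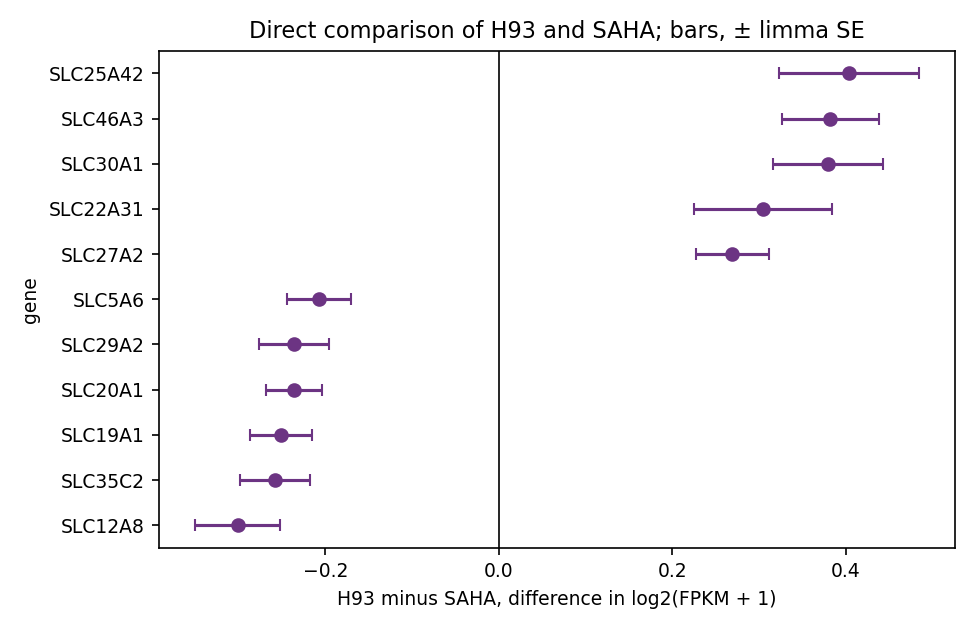
Difference in log2(FPKM + 1) between H93 and SAHA for 11 members among the 6 with the largest difference in each direction, with bars of ± 1 limma SE over 3 libraries a group. The values run from -0.30 for SLC12A8 to 0.40 for SLC25A42, all short of the 1.5-fold mark of 0.585.

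Genes that work with these transporters were taken from a list of 24, of which 23 were tested, leaving out SLC7A5 and SLC7A11, which the list as first written also held. With H93, 13 rose and 2 fell, where 34.9% of all tested genes rose and 35.0% fell. With SAHA 10 rose and 3 fell, against 27.4% and 31.4% of all genes. H93 was higher than SAHA for 7 and lower for 2, against 17.6% and 13.9% of all genes. ATP1B3 and ATP1B1 are beta chains of the sodium pump, which builds the gradient that many solute carriers use. ATP1B3 had FPKM of 129.6, 124 and 126 in DMSO, 165, 169 and 163 in H93 and 146, 145 and 145 in SAHA, with DMSO lowest and H93 highest and no overlap. It rose by 0.38 ± 0.023 (SE, limma adjusted p = 1.76e-08) with H93 and 0.20 ± 0.023 (SE, limma adjusted p = 1.33e-05) with SAHA. ATP1B1 was 48.4 ± 0.684, 58.5 ± 2.16 and 51.8 ± 1.78 and rose by 0.27 ± 0.032 (SE, limma adjusted p = 1.13e-05) with H93, while the SAHA call (adjusted p = 0.0242) was lost without DMSO replicate 1 (0.0666) or 3 (0.0691) and without SAHA replicate 1 (0.0886) or 2 (0.0692). BSG, the partner of SLC16A1 and SLC16A3, had FPKM of 343, 337 and 337 in DMSO, 369, 374 and 371 in H93 and 354, 337 and 355 in SAHA and rose with H93 by 0.13 ± 0.023 (SE, limma adjusted p = 0.000259).

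MPC2, a subunit of the mitochondrial pyruvate carrier, had FPKM of 13.7, 13.4 and 13.2 in DMSO, 22.6, 19.0 and 20.8 in H93 and 16.7, 18.5 and 16.7 in SAHA, with the DMSO libraries lowest and H93 highest, and rose by 0.59 ± 0.056 (SE, limma adjusted p = 1.17e-06) with H93 and 0.34 ± 0.056 (SE, limma adjusted p = 0.000218) with SAHA. MPC1, its partner subunit, was low, at 1.05 ± 0.205, 1.35 ± 0.282 and 0.993 ± 0.142, and did not pass. OXSR1, a kinase of the WNK pathway that acts on the SLC12 cotransporters, had FPKM of 22.1, 21.9 and 23.9 in DMSO, 31.7, 31.3 and 31.6 in H93 and 30.1, 29.3 and 28.6 in SAHA and rose by 0.46 ± 0.035 (SE, limma adjusted p = 1.44e-07) with H93 and 0.36 ± 0.035 (SE, limma adjusted p = 2.48e-06) with SAHA. Its upstream kinase WNK1 also rose with both, by 0.15 and 0.13, and STK39, the related kinase, passed with neither. Of the metallothioneins, which bind zinc and copper, MT2A had FPKM of 1365, 1200.1 and 1244 in DMSO, 1846, 2324 and 1863 in H93 and 1898, 2026 and 1923 in SAHA and rose by 0.66 ± 0.074 (SE, limma adjusted p = 5.57e-06) and 0.62 ± 0.074 (SE, limma adjusted p = 1.59e-05). MT1X rose with H93 (adjusted p = 0.00814) and MT1E with SAHA (adjusted p = 0.000448), and MT1F passed with neither. CLN3, of the lysosomal membrane, fell with both compounds, by 0.23 and 0.20.

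Outside the minimum level, 26 further SLC genes passed the filter on low values. With H93, 12 of them rose and 4 fell, and 3 rose and 0 fell at 1.5-fold, and with SAHA 9 rose and 5 fell. Over all 11525 genes 34.9% rose and 35.0% fell with H93, and 27.4% and 31.4% with SAHA. At 1.5-fold with H93, 4.51% and 5.15% of the 10190 genes at the minimum level rose and fell. The shares of other tested genes under that level, the closer comparison, were not computed. Some of these genes can have passed the filter only through the group in which they are high, so the counts are a description. SLC25A16, just under the limit, rose with H93 (limma adjusted p = 6.68e-05) and not with SAHA (adjusted p = 0.951), and SLC16A9 fell with both (2.34e-05 and 0.000269).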

How the data were processed

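RNA of DU145 cells was sequenced after 6 days in DMSO, H93 or SAHA, with 3 libraries per group. TRIzol extraction and a stranded TruSeq mRNA kit were used, per the labels' protocols. The authors deposited 1 table of FPKM per gene and library. Trimmomatic 0.36, HISAT2, Cufflinks and GRCh38.p13 are listed, without roles, in the submitters' processing notes, while neither annotation nor strand setting was given in the sources used here. Groups came from the sample titles. No read counts were recovered, and no counting interval was computed.

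Values were analysed as log2(FPKM + 1), with a pseudocount of 1, in the 11525 genes that reached an FPKM of 1 in 3 or more of the 9 libraries. The model of limma 3.58.1 (R 4.3.3) took 1 mean per group over the 9 libraries and moderated variances along their trend (6 residual and 6.05 prior degrees of freedom). Two-sided p-values were adjusted by Benjamini-Hochberg over the 11525 genes. No exact permutation test was used, since with 3 libraries a group its smallest p is 0.1. When tested on simulated data with 200 of 11525 genes changed by 1.5-, 2- or 4-fold, the fit recovered the changed genes. The share of false genes among its calls was 7.83%, above the threshold of 0.05. Changes under 1.5-fold, as most differences of the members were, were not simulated. Their recovery, and the false share where most genes change, are thus unknown.

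The members and the lists (classes, partners, markers, motifs) were chosen with earlier results of these data known. Substrate classes follow the family number; SLC2A4RG, SLC4A1AP and SLC7A6OS joined SLC9A3R1 and SLC9A3R2 as genes that are not transporters, and the second entry of SLC25A6 stayed with the mitochondrial carriers, both after the table was seen. Named genes were the 5 highest members in DMSO, the 10 largest rises and falls against DMSO and the 6 in each direction of H93 against SAHA (passing the test, without overlap), up to 4 with the largest H93 difference per class, the 3 on each side of the minimum level, the 2 set aside and the partner list (counted without these 2, a choice made after the values were seen). SLC1A5, SLC2A1, SLC3A2, SLC12A2, SLC16A1, SLC31A1, SLC46A1 and the second SLC25A6 entry were added after their values were seen. Gene positions are from GENCODE release 29 (GRCh38), by Entrez identifier, for 179 of 180 members. A few named genes are not reported here. No batch is given in the labels. Software was Python 3.11.15, pandas 2.3.3, numpy 2.4.6 and, for plots, matplotlib 3.10.9.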

Additional observations from a re-analysis of the deposited data

How the results depend on the processing

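Settings changed singly were the pseudocount (0.1 or 5), the filter (none, or a mean FPKM of at least 5), the scaling (median-ratio, quantile or an equal sum for each library), robust moderation, a model with only the 6 libraries under comparison, a replicate block, the minimum level of the members and each library in turn. Of 5100 values of 92 single genes over 22 settings, 4965 kept their direction and their side of the threshold, 94 lost the call, 41 gained one and 0 called values changed sign, while 52 values without a call in either fit changed sign. Of 1254 class counts, 1192 stayed within 1.5 times.

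At 1.5-fold, the H93 rises (6) became 11 with a pseudocount of 0.1, 0 with 5 and 3 among members with a DMSO mean of at least 5, and the H93 falls (20) became 7 with a pseudocount of 5 and 11 at a mean FPKM of at least 5. The SAHA rises (0) became 1 with a pseudocount of 0.1, 1 among members with a DMSO mean of at least 1, and 1 among members with a mean of at least 2 over all libraries. The SAHA falls (8) became 3 with a pseudocount of 5 and 4 at a mean FPKM of at least 5. At 2-fold, the H93 falls (2) became 4 with a pseudocount of 0.1 and 0 with 5, and the SAHA falls (2) became 6 with a pseudocount of 0.1, 0 with 5, 1 with median-ratio scaling and 0 with quantile normalization. A larger pseudocount shrinks every difference by construction, and a higher minimum tests fewer genes; for the rest the cause was not tested.

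Leaving out 1 library gave 64 to 70 rises and 64 to 70 falls with H93, 5 to 6 and 18 to 21 at 1.5-fold, and 2 to 3 falls at 2-fold. With SAHA it gave 43 to 48 rises and 60 to 65 falls, 0 to 1 (1 without DMSO replicate 3) and 7 to 8 at 1.5-fold, and 0 to 2 falls at 2-fold. Between H93 and SAHA it gave 30 to 45 higher and 17 to 22 lower in H93. The replicate numbers did not pair the libraries: 0 of 9 same-numbered pairs had a correlation of deviations over 0.1 (-0.098 to 0.036), and 2 of 9 libraries correlated best with their own number. With the replicate block, 71 rose and 70 fell with H93, 48 and 64 with SAHA, and 43 were higher and 18 lower in H93 than in SAHA.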
